A study of Mus musculus with 6 samples.

Results

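Cluster 11 of the control (CO) uterine epithelium held 97 cells with more Foxa2 RNA than any other CO epithelial cluster except the mature gland cluster 13, and almost no RNA of the serine proteases and the protease inhibitor that mark that gland. Its cells were taken as those numbered 11 in the deposited clustering of CO epithelial cells, and all 97 had counts. They made up 3.76% (exact binomial 95% interval 3.06% to 4.56%) of the 2583 CO epithelial cells that had both a cluster and counts. All 97 cells carried the deposited cell type epithelial, and 96 of them lay in cluster 1 of the clustering that integrated CO and DES epithelium.

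The uteri came from CD-1 mice aged 12 months that had received corn oil (CO) or diethylstilbestrol (DES, a synthetic estrogen) at 1 mg/kg/day on days 1 to 5 after birth. Cells from 2 pooled CO mice formed the CO library, and cells from 4 pooled DES mice formed the DES library. Visium sections, in which each barcoded spot covers several cells, came from 2 CO and 2 DES mice with 1 mouse per section. CO cells were compared with each other within 1 library, so values of cluster 11 against other cells have no replicate and were not tested. Intervals given for counts and shares cover counting error only.

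FOXA2 is a forkhead transcription factor that in the adult mouse uterus is found in the glandular epithelium and is required for glands to form and to function. Mature glands secrete leukemia inhibitory factor and serine proteases that support the implanting embryo, while the luminal epithelium faces the uterine cavity and receives the embryo. Cells of both compartments also secrete antimicrobial proteins and chemokines at the mucosal surface, and many of these respond to estrogen and to inflammatory signals.

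The cells of cluster 11 were deeply sampled. The number of unique molecular identifiers (UMIs, each standing for 1 captured RNA molecule) ran from 14901 to 98040 per cell with a median of 34009, against a median of 12201 in cluster 13 and 25158.5 in the other luminal clusters (10, 9, 7, 6, 5, 4, 2, 1 and 0). Levels are therefore the UMIs of a gene summed over a cluster per 1000000 UMIs of that cluster (CPM), and shares of cells with a UMI were read after each cell was thinned to 3000 UMIs. Scrublet, a doublet caller, marked 0 of the 97 cells (taking 3 cells as the limit of a count of 0, up to 3.09%) and 18 of the 2486 other cells. In 1 of the 97 cells the barcode also occurred in the DES library.

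The epithelial identity of cluster 11 was read from marker genes. The 9 genes of simple epithelium, which include keratins and Epcam, summed to 6714 CPM, against 7591 CPM in the other luminal clusters and 4194 CPM in cluster 13. Of 12 genes of basal and squamous epithelium, 8 had no UMI in cluster 11. Of 11 genes of ciliated cells, 7 had no UMI, and the list summed to 10.9 CPM. The 9 stromal genes summed to 477 CPM in cluster 11, 375 CPM in the other luminal clusters and 26374 CPM in CO stromal cells. Of the 6 stromal genes at 10 CPM or more, the collagens Col1a1 (44.1 against 17.4 CPM) and Col6a3 (29.8 against 11.6 CPM) were at least 2-fold higher than in the other luminal clusters. Over all genes, 2.78% were at least 2-fold higher in that comparison and 2.35% at least 2-fold lower. Cluster 11 was the highest of the 15 clusters for both collagens, with cluster 13 next. The part of stromal RNA in the other values of cluster 11 was not tested. The 13 immune genes summed to 56.3 CPM in cluster 11 and 95 CPM in the other luminal clusters. Of the 3 at 10 CPM or more in that comparison, Lyz2, a lysozyme of myeloid cells, was at least 2-fold higher (10.1 against 3.75 CPM). Cd68 was at least 2-fold lower.

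Foxa2 reached 21.8 CPM in cluster 11 (82 UMIs, 95% interval 17.3 to 27.0). The gene lies at chr2:148042877-148046969 on the minus strand (GRCm38). Only cluster 13 was higher, at 82.0 CPM (64.3 to 103). The next cluster was 12 at 12.4 CPM (7.80 to 18.8), an interval that overlapped that of cluster 11, and the other 12 clusters lay between 1.67 and 9.44 CPM. Foxa2 in cluster 11 was 3.73-fold (2.90 to 4.75) the level of the other luminal clusters together and 0.266-fold (0.192 to 0.369) that of cluster 13. At 3000 UMIs per cell, 11 of 97 cells held a Foxa2 UMI (11.3%, 5.80% to 19.4%), against 12 of 60 in cluster 13 (20%, 10.8% to 32.3%), 30 of 1979 in the other luminal clusters (1.52%) and 8 of 6718 mesothelial cells (0.12%), in which the gene is not expected and which had a median of 10436 UMIs before thinning. Without thinning, 42 cells held at least 1 Foxa2 UMI and no cell held more than 6. The 5 cells with the most Foxa2 carried 30.5% of its UMIs, so the level did not come from a single cell. The related gene Foxa1 was at 0.797 CPM and Foxa3 had no UMI in cluster 11.

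The serine proteases of the mature gland were at background in the same cells. Prss29 (chr17:25318654-25322684, plus strand), an implantation serine proteinase, was at 6.91 CPM in cluster 11 and 51277 CPM in cluster 13, a 7423-fold difference (5066 to 11365). Its partner Prss28 was at 1.33 CPM, from 5 UMIs, against 15773 CPM in cluster 13. Spink1, a secreted trypsin inhibitor of the gland, was at 4.52 CPM against 17834 CPM. At 3000 UMIs, none of the 97 cells held a UMI of Prss29, Prss28 or Spink1 (exact 95% interval for each gene 0% to 3.73% of cells with a UMI at that depth), whereas 57 of 60 cells of cluster 13 held each of them. Without thinning, Prss29 was found in 21 of the 97 cells, Spink1 in 16 and Prss28 in 5, with at most 2 UMIs of any of them in a cell. CO mesothelial cells, which should not make these proteins, held a Prss29 UMI in 7.07% of cells and had 20.5 CPM. They had 5.09 CPM of Prss28 and 7.67 CPM of Spink1, so all 3 genes were lower in cluster 11 than in these cells. Luminal cluster 7 carried more of these RNAs than cluster 11, with Prss29 at 207 CPM. Lif, the gene of leukemia inhibitory factor, was at 49.2 CPM in cluster 11 and 29.8 CPM in the other luminal clusters. It was at 3.37 CPM in cluster 13, the lowest of the 15 clusters, a level that rests on 3 UMIs. The plot of gland genes by cluster shows the separation.

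**Figure D1:**
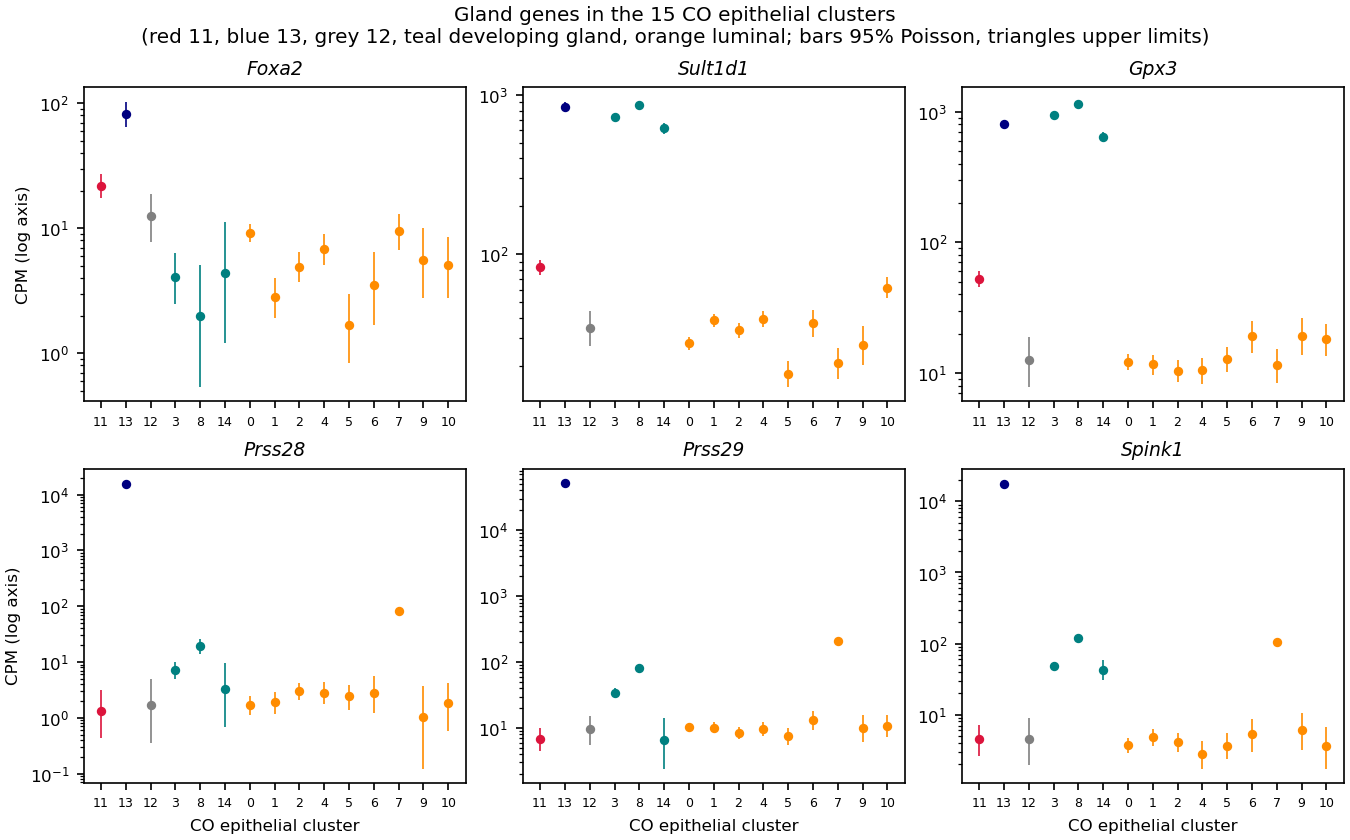
CPM (log axis) of 6 gland genes in each of the 15 CO epithelial clusters, with 95% Poisson intervals as bars. Foxa2 in cluster 11 (red) stood at 21.8 CPM, second to cluster 13 (blue) at 82.0 CPM, while Prss28 and Spink1 in cluster 11 lay among the luminal clusters (orange) and Prss29 (6.91 CPM) below all of them.

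Sult1d1 and Gpx3 lay between the luminal clusters and cluster 13, while the genes listed for the developing gland were not raised. Both Sult1d1 and Gpx3 were highest in developing gland cluster 8, at 870 and 1147 CPM, so they do not mark the mature gland alone. Sult1d1, a cytosolic sulfotransferase of uterine glands, was at 82.9 CPM in cluster 11, 32.2 CPM in the other luminal clusters and 847 CPM in cluster 13. Gpx3, a secreted glutathione peroxidase, was at 52.3 CPM, 12.4 CPM and 807 CPM in the same order. Each of these genes was higher in cluster 11 than in any of the 9 other luminal clusters, the nearest being cluster 10 with 61.9 CPM of Sult1d1 and cluster 9 with 19.3 CPM of Gpx3. CO mesothelial cells had 6.11 CPM of Sult1d1 but 73.6 CPM of Gpx3, more than cluster 11, so Gpx3 of cluster 11 was not above the level in that cell type. Klk1 and Napsa, which are high in the developing gland clusters 3, 8 and 14 (533 and 2301 CPM together), were at 5.58 and 12.8 CPM, and Napsa was lower in cluster 11 than in any other cluster. Prap1, a secreted proline-rich acidic protein, was at 309 CPM in cluster 11, 2498 CPM in the other luminal clusters and 50304 CPM in the developing gland clusters, and only cluster 12 was lower. Of the 5 developing gland genes at 10 CPM or more against the other luminal clusters, none was at least 2-fold higher and Prap1 and Wnt7b were lower. Over all genes, 2.78% were at least 2-fold higher and 2.35% at least 2-fold lower.

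The 8 genes that the study picked as relatively specific to its putative luminal clusters were present in cluster 11 at reduced levels. They ran from 51.3 CPM (Cdc42ep2) to 76.3 CPM (Lrmp), and all 8 were between 0.511-fold (Pla2g2e) and 0.773-fold (Adgrg7) of the other luminal clusters, with none past 2-fold. Against cluster 13, all 8 were at least 2-fold higher, from 4.73-fold (Pla2g2e) to 20.98-fold (Ifi203). The study picked them as frequent in luminal clusters, cluster 11 included, and rare in gland clusters, cluster 13 included. Their direction against cluster 13 was therefore set by that choice. Of the 8703 genes at 10 CPM or more against cluster 13, 10.9% were at least 2-fold higher in cluster 11 and 14.2% at least 2-fold lower. In the comparison with the other luminal clusters, 2.78% of 7907 genes were at least 2-fold higher in cluster 11 and 2.35% at least 2-fold lower. Of the 6 genes of the mature gland list at 10 CPM or more there, Foxa2, Sult1d1 and Gpx3 were at least 2-fold higher in cluster 11 and 2 were lower. Foxa2 was known beforehand as the marker of cluster 11. It reached 10 CPM only through that cluster, so it could not come out lower. Sult1d1 and Gpx3 were also high in developing gland clusters.

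The 20 nearest neighbours of each cell were read in a space of principal components. The components came from the counts on which the deposited clusters were formed, so the links describe the clusters and test nothing. Links were not scaled by cluster size, which was 482 cells in cluster 0 and 62 in cluster 13. Of the links from cluster 11 cells, 73.6% went to cluster 11 itself, 15.1% to cluster 0, 5.41% to cluster 10 and 2.53% to cluster 7, all luminal. None went to cluster 13, cluster 12 or the developing gland clusters. In the other direction, 1.27% of the links from cluster 12 and 0.0806% of those from cluster 13 went to cluster 11. From developing gland clusters 8 and 3 the shares were 0.203% and 0.0245%. The border of the cluster depended on how cells were grouped. When the cells were clustered again, 93 of the 97 fell in 1 cluster of 176 cells at Leiden resolution 1, but 55 fell in a cluster of 664 cells at resolution 0.5 and 53 in a cluster of 125 cells at resolution 2. Foxa2 was then 2.55-fold, 1.63-fold and 1.47-fold the level of the other cells, against 3.27-fold for cluster 11 as deposited.

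Cluster 11 was led by 30 genes, taken as those with the highest fold over all other CO epithelial cells among genes with at least 50 CPM and a thinned share of at least 25% of its cells. Genes that formed the cluster also set these folds, so they describe the cluster and test nothing. The first were Scgb3a1, a small secretoglobin of airway and glandular epithelium (184 CPM, 25.4-fold, 22.6 to 28.4), Fabp5, a carrier of fatty acids (269 CPM, 22.8-fold), Cldn2, a pore-forming claudin of tight junctions (124 CPM, 19.9-fold), and Agr2, a disulfide isomerase of the endoplasmic reticulum that mucin-secreting cells need (173 CPM, 16.2-fold). Among the others were Tmem158 (7.55-fold), the secreted glycoprotein Lrg1 (6.93-fold), Aoc1, which degrades histamine and polyamines (1175 CPM, 6.61-fold), the interleukin Il1f6 (6.35-fold), Tnip3 (5.35-fold), the guidance factor Ntn1 (4.67-fold), the mucosal chemokine Ccl28 (4.38-fold), the neutrophil growth factor Csf3 (4.28-fold) and endothelin Edn1 (4.14-fold). The last 3 of the 30 were Bmyc (2.29-fold), Isyna1 (2.24-fold) and Cyr61 (2.20-fold). In the cluster rebuilt at resolution 0.5, 4 of the 30 genes were at least 2-fold above the other cells, with 26 at resolution 1 and 15 at resolution 2.

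Cluster 11 was the highest of the 15 clusters for 24 of the 30 genes. The exceptions were Scgb3a1, Clu, Tns1 and Bmyc, which were highest in cluster 13 with cluster 11 second, Cldn10, also highest in cluster 13 with cluster 11 at rank 6, and Cyr61, highest in cluster 7 with cluster 11 at rank 3. Scgb3a1 was at 455 CPM in cluster 13 and between 0.765 and 6.15 CPM in the remaining clusters. Luminal cluster 10 came close to cluster 11 for several of them, with Aoc1 at 1025 CPM against 1175 CPM, Lcn2 at 12888 against 15816 CPM and Ada at 94.8 against 101 CPM. Against the mean of the other clusters in place of their pooled cells, 26 of the 30 genes were at least 2-fold higher and the lowest fold was 1.23. The plot of leading genes by cluster shows that Cldn2, Agr2 and Fabp5 were next highest among luminal clusters in cluster 10, at 55.8, 68.8 and 28.6 CPM.

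**Figure D2:**
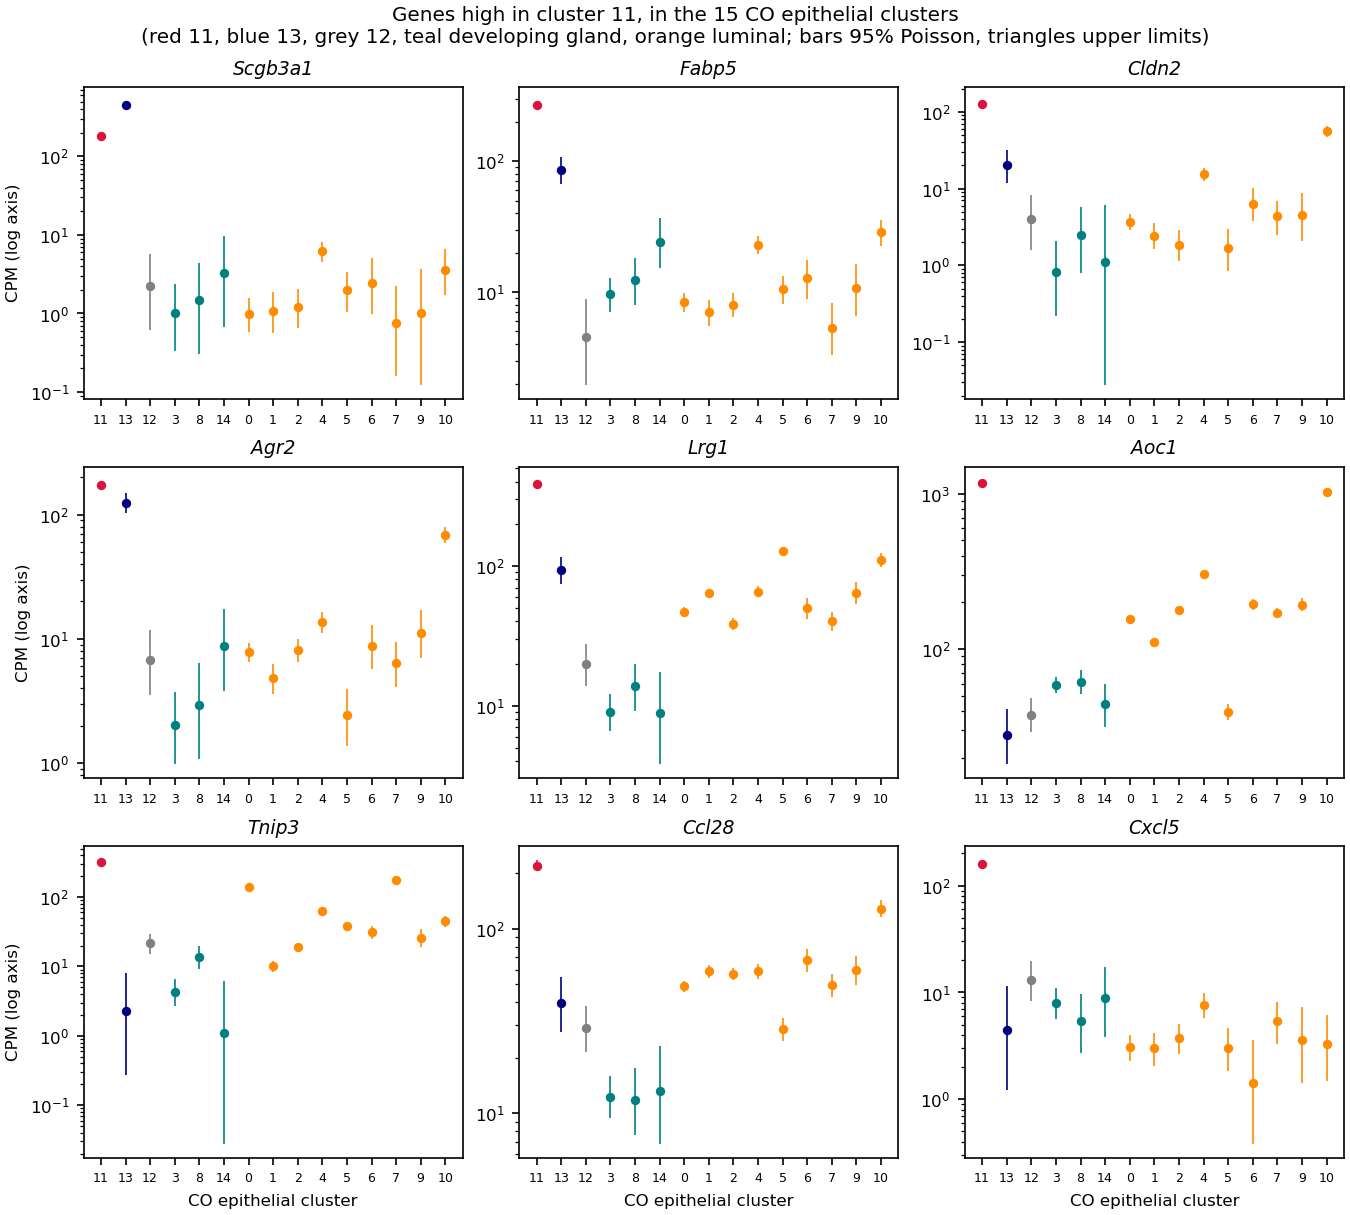
CPM (log axis, 95% Poisson intervals) of 9 genes that were high in cluster 11 in each CO epithelial cluster. Cluster 11 (red) was the highest in 8 of the panels, and Scgb3a1 was higher in cluster 13 (blue) at 455 CPM than in cluster 11 at 184 CPM.

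The number of leading genes found per cell describes the cluster, since the genes were chosen for being high and frequent in these cells. At 3000 UMIs a cell of cluster 11 had a median of 15 of the 30 genes (10th to 90th percentile 11 to 19.4, lowest 7, highest 25). The next clusters were 10 with a median of 9 and 7 and 13 with 8 each, and CO mesothelial cells had 4. Within the cluster the genes were not evenly spread. Ltf and Lcn2 were found in all 97 cells without thinning, whereas Scgb3a1 was found in 48 cells, with 44.3% of its UMIs in 5 of them, and Csf3 in 67. Cells with a Foxa2 UMI, which had a median of 40026 UMIs against 30716 in the rest, held Cxcl5 in 25 of 42 and Scgb3a1 in 27 of 42, against 15 of 55 and 21 of 55 of the cells without one. Depth moved with this split, and its part in the difference was not tested.

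**Figure D3:**
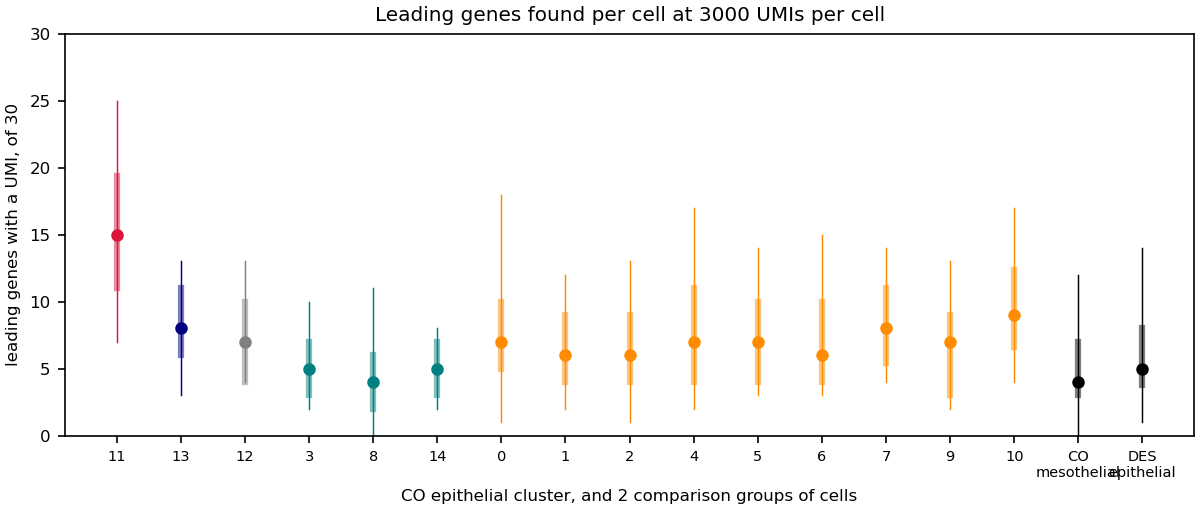
Number of the 30 leading genes with a UMI in each cell thinned to 3000 UMIs. Points are medians, thick bars the 10th to 90th percentile and thin lines the range, and cluster 11 (red) had a median of 15 against 4 to 9 in the other CO clusters.

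Chemokines and antimicrobial proteins were mostly higher in cluster 11 than in the other epithelial cells. Against all other CO epithelial cells, 9 of the 12 list genes at 10 CPM or more were at least 2-fold higher and 1 was lower. Of all 7965 genes, 2.30% were at least 2-fold higher and 2.80% at least 2-fold lower. The median log2 fold of the list was 1.26 (-0.00025 over all genes). Like the other lists, this one was chosen with earlier results of these data known, so the count is a description. Ltf, Lcn2, Ccl28 and Pigr are also leading genes, and Cxcl5 and Lpo reached 10 CPM only through cluster 11. Cxcl5, a chemokine that attracts neutrophils, was at 160 CPM in cluster 11 and 3.78 CPM in the other luminal clusters (42.2-fold, 36.3 to 49.2), and no other cluster passed 13.01 CPM. Lpo, a peroxidase of secretions, was at 27.1 CPM and 0.79 CPM. The iron-binding protein Ltf was at 5807 and 2409 CPM, and Lcn2, which binds bacterial siderophores, at 15816 and 7741 CPM. Ccl28, Cxcl1, Cxcl2, Slpi and Pigr were also at least 2-fold higher than in the other luminal clusters together. Luminal cluster 0 alone had about as much Cxcl2 (154 CPM in each) and Cxcl1 (174 against 182 CPM). Wfdc2 was the list gene at least 2-fold lower than in all other CO epithelial cells, at 1187 against 2656 CPM. Against cluster 13, where 10.9% of all genes were higher and 14.2% lower, 9 of 14 list genes were at least 2-fold higher and Lyz1 and Cxcl15 at least 2-fold lower.

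Some other serine proteases were detected in cluster 11. Tmprss11a, a membrane serine protease, was at 43.3 CPM in cluster 11, 0.945 CPM in the other luminal clusters (45.8-fold, 34.0 to 62.6) and 21.3 CPM in cluster 13. Its relative Tmprss11g, which is among the 30 leading genes, was at 157 CPM, 49.8 CPM and 12.4 CPM. Tmprss11d was at 82.9 CPM in cluster 11, 87.3 CPM in the other luminal clusters and 3.37 CPM in cluster 13, and 6 clusters were higher than cluster 11. Of the 15 serine proteases at 10 CPM or more against the other luminal clusters, Tmprss11a, Tmprss11g and Htra1 were at least 2-fold higher and Prss29 was lower, against 2.78% and 2.35% of all genes. Tmprss11a reached 10 CPM only through cluster 11, and Prss29 only through the other luminal clusters. The filter therefore set their direction, and Tmprss11g was chosen as high in cluster 11, so the count is a description. The other members of the list of 77 were below 10 CPM or within 2-fold in that comparison. Against cluster 13, 7 of 17 serine proteases were at least 2-fold higher and 4 were lower, Prss28 and Prss29 among the latter. Over all genes 10.9% were higher and 14.2% lower there. Members that reached 10 CPM in only 1 of the groups could pass in 1 direction only.

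Of the 21 serine protease inhibitors at 10 CPM or more against the other luminal clusters, 7 were at least 2-fold lower and 3 higher, against 2.35% and 2.78% of all genes. Serpina1c was at 6.91 CPM in cluster 11 and 160 CPM in the other luminal clusters, and Spink12, a Kazal-type inhibitor, at 297 and 1805 CPM. Wfdc18, among the 3 higher ones, was at 39.1 and 2.82 CPM, and at 57.3 CPM in cluster 13. Against the luminal clusters Wfdc18 reached 10 CPM only through cluster 11, and Serpina1c only through the luminal clusters. The filter therefore set the direction of both. Against cluster 13, where 14.2% and 10.9% of all genes were lower and higher, 6 of 23 inhibitors were lower and 6 higher, Spink12 among the latter. Other genes at the low end against the luminal clusters were the water channel Aqp4 (2.13 against 75.9 CPM), the surface protein Ly6a (126 against 649 CPM) and Prap1. At the high end, beside the leading genes, were Krt83, a hair keratin (62.2 against 0.62 CPM, and 435 CPM in cluster 13), the chitinase-like protein Chil1 (72.5 against 3.49 CPM), the calcium-binding protein Calb1 (105 against 8.36 CPM) and Dmbt1, a mucosal scavenger receptor protein (83.4 against 10.6 CPM).

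Of the 12 genes with the highest fold over cluster 13, 4 were leading genes. Tnip3, which restrains NF-kappaB signalling, was at 321 CPM in cluster 11 and 2.25 CPM, from 2 UMIs, in cluster 13 (143-fold, 39.4 to 1180). Aoc1 was at 1175 and 28.1 CPM (41.9-fold), Csf3 at 205 and 3.37 CPM (60.9-fold, 20.8 to 296), and the interleukin Il1a at 66.2 and 2.25 CPM (29.5-fold, 8.07 to 245). The cluster 13 values of the last pair rest on 3 and 2 UMIs. Sprr2d and Sprr2b, small proline-rich proteins of the epithelial barrier, were 54.1-fold (14.9 to 448) and 21.4-fold (13.1 to 37.5) higher. Sprr2d in cluster 13 was at the same 2.25 CPM as Tnip3. At the lower end, beside Prss28, Prss29 and Spink1, were the retinol and thyroxine carrier Ttr (0.266 against 122 CPM), the matrix protein Tgfbi (1.06 against 432 CPM), the Wnt-pathway modulator Dkk3 (0.266 against 102 CPM) and the keratin Krt23 (3.45 against 339 CPM). Mt3, a metallothionein, had no UMI in cluster 11 and was at 65.1 CPM in cluster 13.

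Of the 21 genes of the estrogen and progesterone list at 10 CPM or more, 6 were at least 2-fold higher than in the other luminal clusters (Clu, Sprr2d, Ltf, Lcn2, Cited2 and Pgr) and 2 were lower (Sprr2a3 and Ccnd1), against 2.78% and 2.35% of all genes. The median log2 fold of the list was 0.34 (0.0041 over all genes). Ltf and Lcn2 are also in the antimicrobial list. The receptor genes Esr1 and Pgr were at 253 and 153 CPM in cluster 11, against 224 and 76.4 CPM in the other luminal clusters. Against cluster 13, where 10.9% of all genes were higher and 14.2% lower, 15 of the 21 were at least 2-fold higher, among them Sprr2d (121 against 2.25 CPM), Ltf and Lcn2, and Clu was lower (805 against 4695 CPM).

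Of the 19 transcription factors of gland, duct and secretory epithelium at 10 CPM or more, Foxa2, Creb3l1, Ehf and Sox9 were at least 2-fold higher than in the other luminal clusters and none was lower, against 2.78% and 2.35% of all genes. Sox9, which marks ducts and progenitors in several epithelia, was at 306 CPM in cluster 11, 147 CPM in the other luminal clusters and 885 CPM in cluster 13. Ehf, an epithelial ETS factor, was at 152, 67.7 and 262 CPM. For Sox9, Ehf and Foxa2 cluster 11 was second only to cluster 13. Foxa2, the known marker of cluster 11, reached 10 CPM only through that cluster in the comparison with the other luminal clusters. Genes of the unfolded protein response had a median log2 fold of 0.80 over the other luminal clusters (0.0041 over all genes), with Creb3l1, Sdf2l1 and Herpud1 past 2-fold.

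Cell cycle genes showed how the choice of comparison cells matters. Of 11 list genes at 10 CPM or more, 7 were at least 2-fold lower in cluster 11 than in the other luminal clusters, against 2.35% of all genes. Among them were Top2a (12.2 against 33.8 CPM) and Cdk1 (2.66 against 16.8 CPM). The list summed to 128 CPM in cluster 11, 1436 CPM in luminal cluster 4 and 2066 CPM in cluster 14, and to between 92.9 and 268 CPM in the other 12 clusters. With cluster 4 left out, a comparison chosen after these values were seen, Top2a was at 8.90 CPM in the luminal clusters and 1 of 6 cell cycle genes at 10 CPM or more was at least 2-fold lower, as were 2.15% of all genes. The lower cell cycle level of cluster 11 therefore rested on cluster 4.

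Signalling lists are given against the other luminal clusters, where 2.78% of all genes were higher and 2.35% lower. Among Wnt ligands, receptors and targets, 12 genes reached 10 CPM, none was at least 2-fold higher and Wnt7b and Ccnd2 were lower. Axin2 and Lgr5, a Wnt target and a receptor of Wnt-active stem cells, were at 1.33 CPM and 0 UMIs in cluster 11 and at 34.8 and 10.1 CPM in cluster 13. Both were also below 10 CPM in the other luminal clusters together, and Axin2 was lowest in luminal cluster 1 (0.544 CPM). Their low levels were therefore not particular to cluster 11. No member of the Notch list or of the list for Hedgehog, BMP and TGF-beta passed 2-fold against the luminal clusters. Of 9 interferon-stimulated genes, 3 were lower (Ifit1, Irf7 and Ifi44) and none higher. Among 18 immediate early and heat shock genes Jun and Atf3 were higher, at 1144 and 251 CPM against 468 and 106 CPM. No posterior Hox gene of the list of 12 reached 10 CPM in any of these groups. Ribosomal protein genes (79 of 80 at 10 CPM or more) and the 13 mitochondrially encoded genes had none past 2-fold.

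The genes with the pattern most like that of Foxa2 over the 15 clusters were found by Pearson correlation of log2(CPM + 1) among 9995 genes. They were Ptpn1 (r = 0.979), Svil (0.943), Sox9 (0.920), Phka1 (0.916), Nfia (0.910), Actn1 (0.894), Nudt12 (0.890), Foxp1 (0.884), Mcc (0.880) and Tns4 (0.875). The 15 points come from 1 library, differ in depth, and the order is led by cluster 13, so r is a description. Ptpn1 was at 58.4 CPM in cluster 11, 106 CPM in cluster 13 and 30.4 CPM in the other luminal clusters.

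Promoter sequences are shown for the leading genes with a kappaB site, the motif bound by NF-kappaB, because several members of the group are known to respond to inflammatory signals. RefSeq promoters (250 bases before to 50 after each start, GRCm38.p6) were held for 20 of the 30 genes as 23 windows. A kappaB site on either strand occurred in 3 of the 23 windows (13.04%), against 8.46% of all 32851 windows. The forkhead motif TGTTTAC, on either strand, occurred in 0 of the 23 and in 3.65% of all windows. The 3 windows belong to Tnip3, Aoc1 and Ada. Their 250 bases upstream of the start are given 5′ to 3′ on the gene's strand, with the kappaB match in capitals. They lie at chr6:65590148-65590397 (+ strand), chr6:48895005-48895254 (+ strand) and chr2:163750240-163750489 (- strand).
Tnip3: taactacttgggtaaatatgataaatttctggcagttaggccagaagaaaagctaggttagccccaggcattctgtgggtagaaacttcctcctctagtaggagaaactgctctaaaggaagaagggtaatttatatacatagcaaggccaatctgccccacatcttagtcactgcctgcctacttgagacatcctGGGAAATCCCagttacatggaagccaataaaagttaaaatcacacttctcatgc
Aoc1: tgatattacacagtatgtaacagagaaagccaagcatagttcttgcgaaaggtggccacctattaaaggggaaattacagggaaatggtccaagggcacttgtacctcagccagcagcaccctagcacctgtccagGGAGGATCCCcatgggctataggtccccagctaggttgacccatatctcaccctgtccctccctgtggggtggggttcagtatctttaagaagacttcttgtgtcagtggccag
Ada: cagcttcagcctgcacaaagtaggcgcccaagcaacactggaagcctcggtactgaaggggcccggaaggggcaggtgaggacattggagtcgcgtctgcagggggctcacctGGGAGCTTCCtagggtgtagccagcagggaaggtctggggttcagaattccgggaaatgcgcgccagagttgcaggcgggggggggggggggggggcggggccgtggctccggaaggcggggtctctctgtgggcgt
The matches begin 54, 114 and 137 bases before the start in the order given. A match is a description of letters, and whether a factor binds there was not measured.

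In CO section 1, Foxa2 and most of the leading genes had their highest level in the same spot cluster, although for Foxa2 and many of these genes most UMIs lay outside it. The authors divided each section into 10 spot clusters, and spot cluster 5 of this section (140 of 1433 spots) had the highest CPM for 25 of the 30 leading genes. The share of all genes with their highest level there was not counted, so the number is a description. These 25 genes had between 15.04% and 78.4% (median 33.5%) of their UMIs in the 9.77% of spots that form it. Scgb3a1 was at 689 CPM there (641 to 740), Fabp5 at 787 CPM, Agr2 at 457 CPM, Cxcl5 at 404 CPM and Cldn2 at 123 CPM. The gland gene Sult1d1 was also highest there, at 36.0 CPM. The paper reads this spot cluster as holding glandular epithelium, from its high Foxa2 and Sult1d1. Foxa2 was at 23.4 CPM (15.3 to 34.3) in spot cluster 5 and 22.1 CPM in spot cluster 7, which does not differ beyond the counting interval, and at most 4.70 CPM in the rest. Of the 56 Foxa2 UMIs in the section, 26 were in spot cluster 5. Prss29 had 3 UMIs in the whole section, and Spink1 and Prss28 had none. Spots were clustered by the authors on the same counts, so these are descriptions.

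Spots of CO section 1 with a Foxa2 UMI also held genes that were high in cluster 11. Of 51 such spots, 27 (52.9%) held Scgb3a1, 31 (60.8%) Fabp5 and 20 (39.2%) Cxcl5, against 17.2%, 28.4% and 15.1% of the 1382 spots without Foxa2. The median UMIs of the spots were 6793 and 6652. The spots without Foxa2 were all other spots of the section, muscle and stroma included. Any gene of epithelium could thus be more frequent beside Foxa2, and no general epithelial gene was counted in this way. Scgb3a1 does not tell cluster 11 from mature gland cluster 13, where it was higher (455 against 184 CPM). Cluster 13 was also next highest for Fabp5 (85.3 against 269 CPM), whereas it had 4.49 CPM of Cxcl5 against 160 CPM. None of the 51 spots with Foxa2 held a UMI of Prss29, Prss28 or Spink1, and 10 held Sult1d1. The whole section held 3 UMIs of Prss29 and none of the other 2 genes, so their absence from these spots could not show a difference.

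In CO section 2, Foxa2 was highest in spot cluster 4, at 11.5 CPM (6.30 to 19.3), where Spink1 was at 10.7 CPM, Sult1d1 at 120 CPM (second to spot cluster 9 at 184 CPM) and Cxcl5 had no UMI. Scgb3a1 had 27 UMIs in the whole section, against 976 in CO section 1, and 17 of the 27 were in spot cluster 4. Of 36 spots with Foxa2, 4 held Scgb3a1, 2 held Cxcl5, 3 held Spink1 and 13 held Sult1d1. Agr2 was in 20 of them (55.6%) and Fabp5 in 7 (19.4%), against 13.5% and 9.29% of the spots without Foxa2, which had a median of 4796 UMIs against 9443.5. In CO section 1 Agr2 was in 51.0% of the Foxa2 spots and 27.1% of the rest. In both sections the spots without Foxa2 were of every tissue. With 1 section per mouse, a difference between the 2 CO sections was not tested. Over whole sections, 26 of the 30 leading genes were higher in CO section 1 than in CO section 2, and 18 were at least 2-fold higher. Of the 10510 genes at 10 CPM or more in any section, 4.25% were at least 2-fold higher. The share of these genes that were higher by any amount was not counted. Krt18, a keratin of simple epithelium, was at 350 CPM in CO section 1 and 591 CPM in CO section 2, whereas its partner Krt8 was at 948 and 500 CPM. The study chose CO mice in estrus by vaginal observation, and its text describes a large tissue fold in CO section 2. The part of the fold in these values was not tested.

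**Figure D4:**
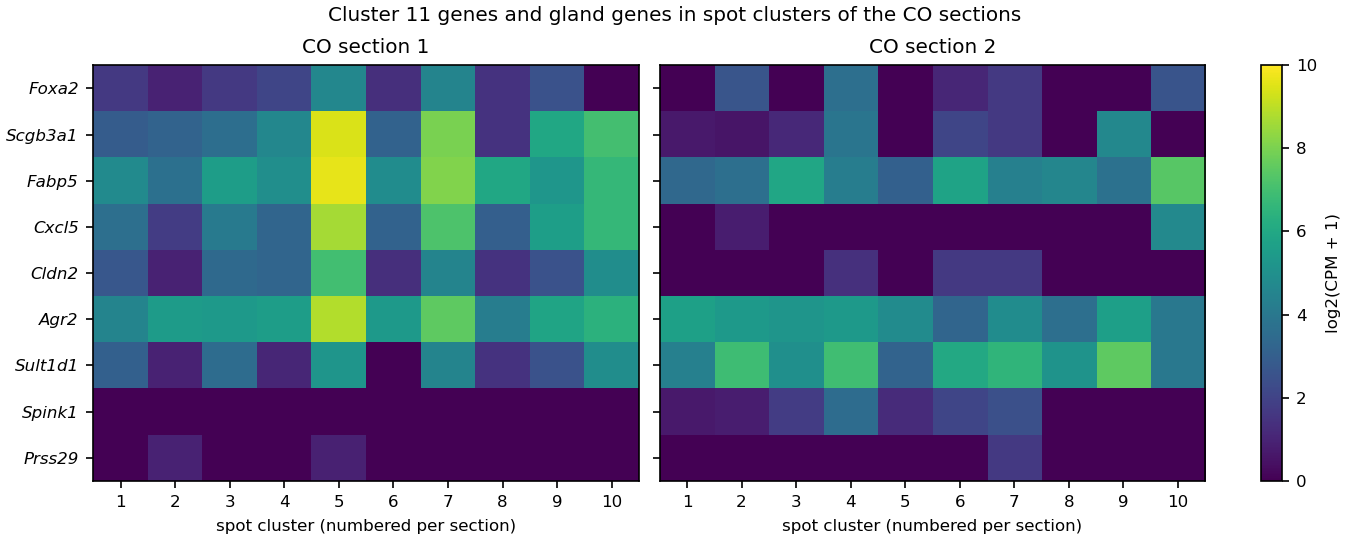
Colour gives log2(CPM + 1) of 9 genes in the 10 spot clusters of each CO section (numbers are set per section and do not correspond). In CO section 1 spot cluster 5 was highest for Foxa2 (23.4 CPM), Scgb3a1, Fabp5, Cxcl5, Cldn2, Agr2 and Sult1d1 (36.0 CPM), while Prss29 and Spink1 were near 0, and in CO section 2 Foxa2 was highest in spot cluster 4 (11.5 CPM) and Sult1d1 in spot cluster 9 (184 CPM).

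The sections also allowed a test of DES against CO with replicates. UMIs were summed over all spots of a section and compared with edgeR (quasi-likelihood test, adjusted p under 0.05 after Benjamini-Hochberg correction). In such sums, fewer cells of a type and less RNA per cell cannot be told apart. The study had the DES tissue examined for uterine adenocarcinoma and cored the chosen blocks to areas of interest. DES exposure, tumour content and the choice of area therefore cannot be told apart either. Foxa2 was at 4.48 and 3.44 CPM in the CO sections and at 22.5 and 37.8 CPM in the DES sections. The groups did not overlap, and Foxa2 was higher in the DES sections with a log2 fold of 2.72 (SE 0.37, adjusted p = 0.031). Without DES section 1 the log2 fold was 3.05 with adjusted p = 0.069, and without DES section 2 it was 2.24 with adjusted p = 0.15, in fits where 14 and 3 of all genes passed. Prss28, Prss29 and Spink1 were too low to be tested and had no UMI in either DES section. In CO sections 1 and 2, Prss28 had 0 and 0 UMIs, Prss29 3 and 1, and Spink1 0 and 26. Sult1d1 was at 8.80 and 73.7 CPM in the CO sections and 1.21 and 4.96 CPM in the DES sections (log2 fold -3.90, adjusted p = 0.14).

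Few of the leading genes passed the test. Over all 14098 genes, 2.67% were higher and 2.63% lower in DES (5.3% in either direction), and of the 30 leading genes none was higher and 2 were lower. Tns1, a tensin of focal adhesions, was at 141 and 167 CPM in the CO sections and at 65.9 and 63.1 CPM in the DES sections (log2 fold -1.46, SE 0.17, adjusted p = 0.023). In the CO sections its highest levels were in other spot clusters than those with most Foxa2, at 334 CPM in spot cluster 2 of CO section 1 and 422 CPM in spot cluster 8 of CO section 2. Cp, the copper carrier ceruloplasmin, was at 95.2 and 55.5 CPM in CO and 19.0 and 18.8 CPM in DES (log2 fold -2.21, SE 0.32, adjusted p = 0.033). DESeq2 called 10 lower and 1 higher among the 30, against 12.7% of all genes in either direction. No leading gene passed without DES section 1 or without DES section 2, when 14 and 3 of all genes were higher and none lower. Without CO section 1 there were 7 higher and 6 lower, beside 1311 higher and 1508 lower of all 14538 genes tested. Without CO section 2, 1 was higher and 15 were lower, beside 1148 and 1188 of all 14505 genes.

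Scgb3a1, Fabp5, Cldn2 and, outside the 30 leading genes, Cxcl5 differed widely between the 2 CO sections. Scgb3a1 was at 78.0 and 2.45 CPM in the CO sections and at 0.22 and 0.40 CPM in the DES sections (log2 fold -7.17, SE 2.05, adjusted p = 0.12). Both CO values lay above both DES values. Fabp5 was at 104 and 21.8 CPM in CO and 186 and 127 CPM in DES (log2 fold 1.08, adjusted p = 0.44). Cxcl5 was at 49.9 and 0.73 CPM in CO and 265 and 54.7 CPM in DES (log2 fold 2.40, adjusted p = 0.44), and Cldn2 at 16.3 and 0.45 CPM in CO and 0.99 and 0.61 CPM in DES (log2 fold -3.62, adjusted p = 0.25). For 13 of the 30 genes the CO and DES sections did not overlap, which was true of 64.1% of the 10510 genes at 10 CPM or more, and 9 of the 13 were lower in DES.

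**Figure D5:**
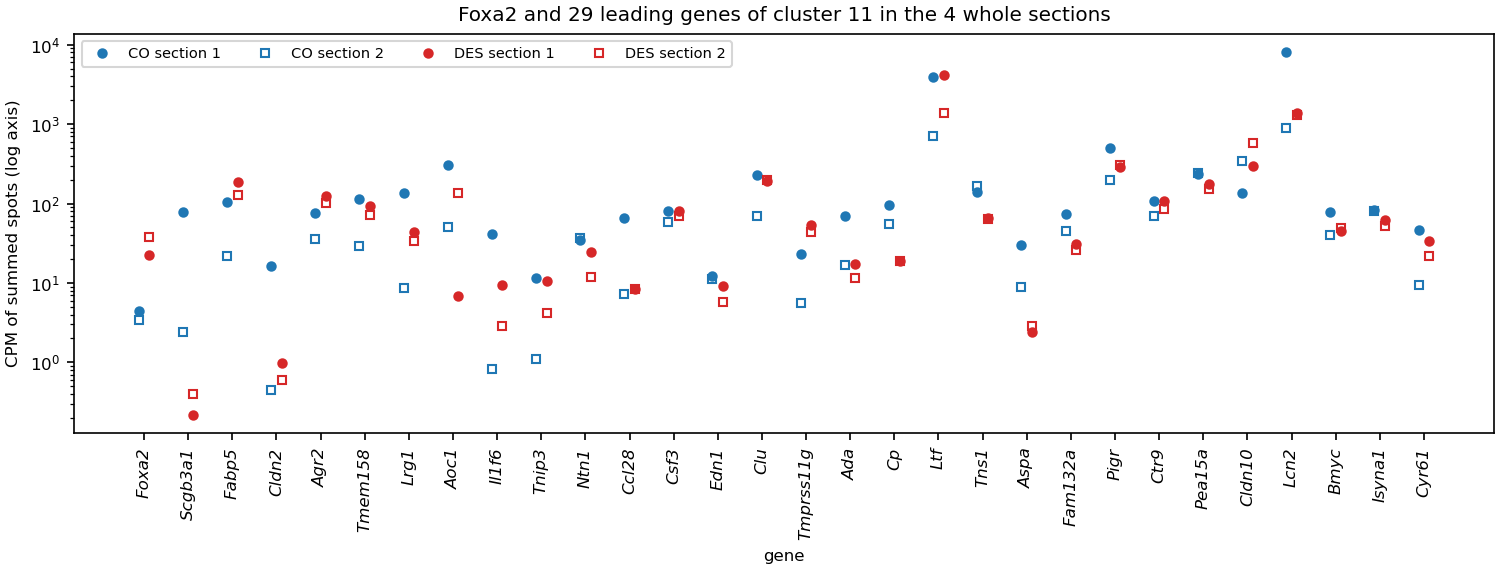
CPM (log axis) of Foxa2 and 29 of the leading genes in the 4 whole sections, CO in blue and DES in red. Foxa2 was higher in both DES sections (22.5 and 37.8 CPM) than in both CO sections (4.48 and 3.44 CPM), and many leading genes, such as Scgb3a1 at 78.0 and 2.45 CPM, differed widely between the 2 CO sections.

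Most leading genes were lower in each DES epithelial cluster than in cluster 11, the cluster they were chosen for. The DES library held 4608 epithelial cells in 16 clusters, and with 1 library per treatment these values were not tested. Foxa2 was at 16.2 CPM over the DES clusters and ran from 5.86 CPM (DES cluster 1) to 68.9 CPM (DES cluster 14), with 5 of the 16 at or above the level of cluster 11. Prss28, Prss29 and Spink1 had no UMI in DES epithelial cells. For 26 of the 30 leading genes every DES cluster lay below cluster 11. Their choice as genes high in cluster 11 favours this, and the share over all genes was not counted. Against all other CO epithelial cells the direction differed by gene. Agr2 was at 24.0 CPM over the DES clusters and 10.7 CPM in those CO cells, and Lrg1 at 1.44 and 55.7 CPM. Scgb3a1 was at most 1.31 CPM in a DES cluster (184 CPM in cluster 11), Fabp5 at most 14.03 CPM, Lrg1 at most 18.4 CPM and Tnip3 at most 13.1 CPM. Leading genes with a DES cluster at or above cluster 11 included Tmem158 and Cldn10, each in 15 of the 16 DES clusters, and Cyr61, in 1. DES epithelial cells thus also held Foxa2 without Prss28, Prss29 and Spink1.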

How the data were processed

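The authors counted UMIs per gene with Cell Ranger 3.0.1 (cells) and Space Ranger 1.2.2 (spots) on mm10, and the deposited counts are not normalized. They removed doublets with scran and gave the cell types and cluster numbers used here. Library depth over the sections was 9117099 to 12506177 UMIs.

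From these counts, CPM of summed UMIs with exact Poisson 95% intervals, shares after thinning to 3000 UMIs (seed 20230) with exact Clopper-Pearson intervals (for 0 doublets, the limit is 3 cells), and folds with exact conditional intervals were computed. A group with no UMI was set to 3 UMIs for a fold. Genes at 10 CPM or more in either group and past 2-fold were counted. Named genes were the 30 leading genes, the 12 highest and 12 lowest at 50 CPM or more, list genes past 2-fold and the gland and luminal markers. Clusters were rebuilt with scanpy 1.11.5 from 2000 variable genes, 30 components and 20 neighbours. Sections were compared with edgeR 4.0.16 (TMM, filterByExpr) and, as an alternative, DESeq2 1.42.0, both over 4 sections. Scripts were tested on simulated data. Of the leading genes, 1 is counted but not reported here by name. The members and gene lists were chosen with earlier results of these data known. Replicates are sections from separate mice.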

Additional observations from a re-analysis of the deposited data

How the results depend on the processing

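Of the values from cells, 547 kept their size and 121 moved under the alternatives. The folds of single leading genes were not followed one by one in the rebuilt clusters, where 6 of the 30 fell below 1 at Leiden resolution 0.5 (lowest 0.232-fold) and none at resolution 1 or 2. The level of Foxa2 in cluster 11 over all other CO epithelial cells, 3.27-fold, was 1.98-fold against the mean of the clusters and 1.63-fold, 2.55-fold and 1.47-fold for clusters rebuilt at Leiden resolution 0.5, 1 and 2. Over the other luminal clusters it was 2.20-fold at resolution 0.5 and 1.70-fold at resolution 2, and over cluster 13 it was 0.113-fold and 0.117-fold. These rebuilt clusters held 55 and 53 of the 97 cells, and 4 and 15 of the leading genes were at least 2-fold higher in them. The cluster at resolution 1 held 93 of the cells, with 26 of the leading genes at least 2-fold higher. Genes at least 2-fold lower than all other cells numbered 142 at resolution 0.5, and those lower than the luminal clusters 52. At resolution 2 the counts were 63 higher and 137 lower against all other cells, and 76 and 81 against the luminal clusters. With genes at 50 CPM or more, which leaves fewer genes, they were 73 and 61, 81 and 56, and 414 and 324 against cluster 13. Without thinning, 43.3% of cluster 11 cells held a Foxa2 UMI. Leaving cluster 4 out of the luminal clusters, chosen after seeing the data, gave 224 higher and 169 lower.

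Over sections, DESeq2 gave 822 genes higher and 969 lower in DES, with 1 and 10 of the leading genes. Leaving out each section in turn gave 3 to 1311 higher and 0 to 1508 lower, and 0 to 7 leading genes higher and 0 to 15 lower. The log2 fold of Foxa2 was then 2.24 to 3.05, and the lone section of a group is assumed to vary like the other group. The direction of 14 leading genes changed with a section left out, with log2 folds of -0.69 to 1.30 for Tmem158, -2.05 to 1.97 for Lrg1, -4.99 to 0.35 for Aoc1, -3.14 to 2.68 for Il1f6, -0.90 to 2.55 for Tnip3, -3.20 to 0.041 for Ccl28, -0.35 to 0.16 for Csf3, -0.46 to 1.31 for Clu, -0.97 to 1.78 for Ltf, -0.99 to 0.41 for Pigr, -0.38 to 0.29 for Ctr9, -2.81 to 0.43 for Lcn2, -0.95 to 0.047 for Bmyc and -0.97 to 1.37 for Cyr61. The share of all genes that changed direction was not counted, and the cause was not tested.

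With the section letter as a replicate block, 298 genes were higher and 229 lower in DES, and the log2 fold of Foxa2 was 2.67 (edgeR adjusted p = 0.046). Tmem158, Tnip3 and Cyr61 changed direction under the block, at 0.28, 0.51 and 0.14. Deviations of same-lettered sections had a correlation of -0.0094, so the letters did not pair the sections. With 1 CO library, no value of cluster 11 against other cells has a replicate.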
